A study of Mus musculus and Homo sapiens with 20 samples.

Results

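ID1, ID2, ID3, ID4, SMAD6, SMAD7, SMAD9 and BAMBI, the ID genes and feedback genes of bone morphogenetic protein (BMP) signalling, were taken by symbol, ignoring case, from the gene count tables of 3 cell lines treated with an inhibitor of HSP90. All 8 genes had a row among the 63568 genes of the K562 table and among the 43626 genes of each of the MEF and HPC-7 tables. They were chosen by their CPM in HSP90i against DMSO libraries of each table, with that response known. Their levels and changes between treated and control libraries are therefore a description with no test. K562 is a human chronic myeloid leukaemia line carrying the BCR-ABL1 kinase fusion, MEF are fibroblasts from mouse embryos, and HPC-7 is an immortalised mouse blood progenitor line grown with stem cell factor. Each line had 3 Control libraries, whose count columns are named for the solvent DMSO, and 3 HSP90i libraries from cells given NVP-AUY922, which blocks the ATP pocket of HSP90, for 16 h. K562 received 300 nM, MEF 200 nM and HPC-7 only 50 nM, so line, dose and, for K562, species changed together. Nothing in the labels says that replicates were separate cultures, so errors and p-values cover only the spread between these libraries.

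BMP ligands bind paired type I and type II serine/threonine kinase receptors, which phosphorylate SMAD1, SMAD5 and SMAD9. These join SMAD4 and switch on target genes. The ID genes are the classic targets, and their products are helix-loop-helix proteins without a DNA-binding region that hold E proteins (TCF3, TCF4 and TCF12) away from DNA and so keep progenitor cells from differentiating. SMAD6 and SMAD7 are inhibitory SMADs and BAMBI is a receptor-like protein without a kinase. All 3 are induced by the pathway and dampen it. ID genes also respond to other signals, including growth factors and STAT5.

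The mouse ID genes, Smad6 and Smad9 lie at Id1 chr2:152736251-152737410, Id2 chr12:25093799-25096092, Id3 chr4:136143822-136145392, Id4 chr13:48261116-48266028, Smad6 chr9:63953076-64022085 and Smad9 chr3:54755455-54801662 (RefSeq annotation of GRCm38.p6). RefSeq promoter windows of GRCm38.p6, from 250 bases before to 50 after a transcript start, were matched for 5 of the 8 genes (Id2, Id3, Id4, Smad6 and Smad9). They were searched on both strands for GGCGCC and GGAGCC, GC-rich sites bound by SMAD1 and SMAD5, for CAGAC, the SMAD box, and for GTCTAGAC, a palindromic SMAD site. No motif lies inside another. The 3 windows below are shown because Id3 and Id2 were among the genes with the largest differences in MEF, while Smad6 differed in opposite directions in the mouse lines. For Smad6 and Smad9 the start used by the window lies inside the gene span given above, so distances are from the start of the window's transcript and not from the end of that span. The windows run to this start (chr4:136143572-136143821, plus strand, for Id3, and chr12:25096093-25096342, minus strand, for Id2) or 4 bases past it (chr9:64022056-64022309, minus strand, for Smad6), 5′ to 3′, with the searched motifs in capitals.
Id3: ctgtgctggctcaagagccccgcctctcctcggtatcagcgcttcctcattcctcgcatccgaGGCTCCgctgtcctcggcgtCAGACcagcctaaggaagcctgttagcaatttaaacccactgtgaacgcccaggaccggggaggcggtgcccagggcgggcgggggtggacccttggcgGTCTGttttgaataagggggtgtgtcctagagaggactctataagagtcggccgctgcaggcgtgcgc
Id2: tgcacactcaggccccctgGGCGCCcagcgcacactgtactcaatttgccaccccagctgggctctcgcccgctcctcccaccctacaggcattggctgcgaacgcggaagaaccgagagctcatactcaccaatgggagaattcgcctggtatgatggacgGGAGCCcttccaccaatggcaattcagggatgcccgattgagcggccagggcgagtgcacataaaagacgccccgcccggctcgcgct
Smad6: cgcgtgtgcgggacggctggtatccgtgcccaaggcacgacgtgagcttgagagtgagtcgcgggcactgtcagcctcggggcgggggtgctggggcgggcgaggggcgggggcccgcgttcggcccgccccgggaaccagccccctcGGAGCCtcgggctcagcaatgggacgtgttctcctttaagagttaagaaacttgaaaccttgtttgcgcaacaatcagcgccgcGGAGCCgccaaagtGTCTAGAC

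GGCGCC, found in 11.9% of 32851 RefSeq mouse promoter windows of 300 bases, was present in Id2, 231 bases before the start, and in the windows of Id4 and Smad9, 148 and 51 bases before it. Id3 and Smad6 had no GGCGCC in this window. GGAGCC, in 30.8% of windows, was present in all 5. CAGAC, in 49.6% of windows, was present only in Id3 of the 5, with matches 167 and 68 bases before the start. GTCTAGAC was in 0.213% of windows and, of the 5, only in Smad6, beginning 4 bases before the start. These matches are descriptions of letters and do not show that a SMAD binds there.

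Total counts of a library lay between 7936066 and 10950573 for K562, between 10542305 and 22872539 for MEF, and between 10131491 and 16859394 for HPC-7. No pair of replicates agreed within sampling noise (chi-square per degree of freedom from 2.35 to 54.7, where noise alone gives about 1). K562 Control replicate 1 stood apart, at 43.9 and 54.7 against the other controls, which were at 5.39 from each other. Of the marker lists, the erythroid one had counts for 8 of 8 genes in K562, the fibroblast one for 8 of 8 in MEF and the blood progenitor one for 8 of 8 in HPC-7. Counts for 8 of 8 blood progenitor genes were also found in MEF, so this alone does not mark HPC-7. Their MEF sum was 189 to 237 CPM in Control and 182 to 201 in HSP90i. Summed blood progenitor markers were at 2860 to 2890 CPM in HPC-7 Control and 4340 to 4760 in HSP90i, but single markers went both ways, Kit from 986 ± 23.9 to 2519 ± 186 CPM and Cd34 from 341 ± 11.6 to 56.7 ± 38.4. Summed fibroblast markers were at 19700 to 20300 CPM in MEF Control and 23000 to 23700 in HSP90i, but single markers again went both ways. Col1a1 (5691 ± 91.1 to 8109 ± 233 CPM), Col1a2, Col3a1 and Pdgfra were higher after treatment. Vim (4945.5 ± 179 to 3278 ± 49.9 CPM), S100a4, Pdgfrb and Thy1 were lower. In K562 the erythroid sum was at 1850 to 1980 CPM in Control and 1600 to 1800 in HSP90i, the blood progenitor sum at 797 to 837 and 643 to 656, and the fibroblast sum at 604 to 813 and 504 to 558. The fibroblast sum in HPC-7 was at 538 to 602 and 462 to 479 CPM. Endothelial markers moved in HPC-7, from 18.4 to 19.4 CPM in Control to 59.1 to 69.5 in HSP90i (5 genes, with TEK at 0), as did the erythroid list (4 of 8 genes in the table), from 415 to 421 to 161 to 174 CPM. In MEF the 5 epithelial markers went from 6.99 to 7.60 CPM to 18.7 to 19.6. The part of these shifts in the results below was not tested. Genes of the heat shock response served as a check on the drug. Of HSPA1A, HSPA8, HSPH1, DNAJB1, HSP90AA1 and HSP90AB1, 6 of 6 rose in K562, 6 of 6 in MEF and 5 of 6 in HPC-7, where Hsp90aa1 fell. Of all genes tested, 5.11%, 35.1% and 36.5% were higher in these lines at an adjusted p under 0.05 (edgeR). The size differed, with log2 fold changes from 2.39 to 6.67 in K562, 0.21 to 2.52 in MEF and −0.62 to 3.4 in HPC-7. The 3.4 was of Hspa1a, which was low in HPC-7, at 0.135 ± 0.0869 CPM in Control and 1.67 ± 0.768 in HSP90i.

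Levels are given as CPM, counts divided by library size and scaled by TMM factors within each table, and are compared between libraries for one gene, never between genes, because no transcript lengths were used. Each log2 fold change is of HSP90i over Control, and its standard error (SE) comes from edgeR. In bulk RNA, fewer expressing cells and less RNA per cell cannot be told apart. In MEF, 8 of the 8 genes passed the filter on low counts, and in 8 all treated values lay below all control values, as they did for 39.3% of all genes tested. K562 had 6 that passed, all 6 lower without overlap (17.8% of genes tested). In HPC-7 only 4 passed, of which 1 was lower, 2 were higher (38.9% and 38.5% of genes tested) and 1 overlapped. The median log2 fold change of those that passed was −1.44 for K562, −2.65 for MEF and 0.29 for HPC-7, beside −0.022, −0.015 and −0.002 for all genes tested. These counts and medians describe the choice of genes and support nothing further.

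**Figure D1:**
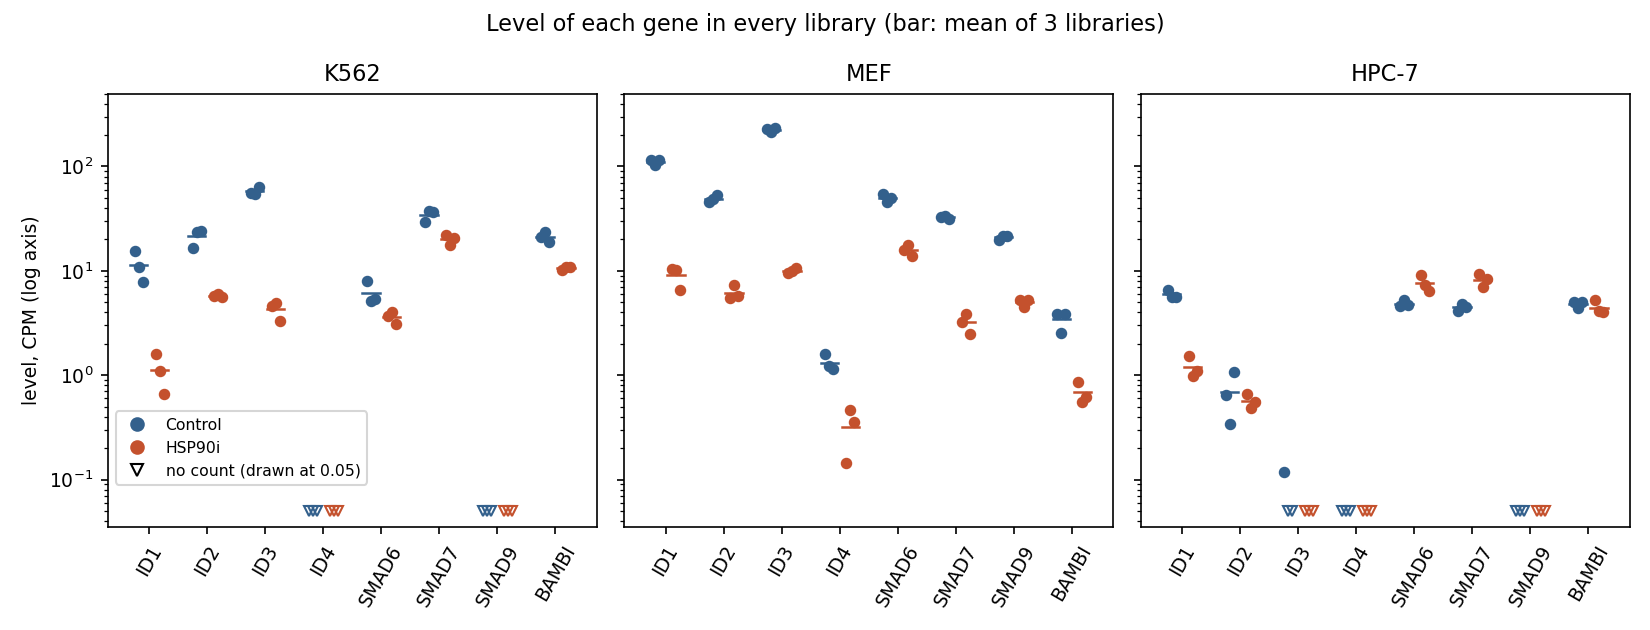
Level of each gene in CPM (log axis) in every library of K562, MEF and HPC-7, blue for Control and red for HSP90i, with a bar at the mean of 3 libraries where all have counts and open triangles for libraries with no count. Control and treated points separate for 6 genes in K562 and 8 in MEF, whereas HPC-7 had no count of ID4 or SMAD9 and higher treated SMAD6 and SMAD7.

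ID3 had the largest difference of the 8 genes in K562 and in MEF. In K562 its Control libraries stood at 56.1, 55.0 and 64.0 CPM and its HSP90i libraries at 4.63, 4.89 and 3.33 CPM. The treated mean was 7.35% of the control mean (58.4 ± 4.94 to 4.29 ± 0.838 CPM, SD, n = 3 each), a log2 fold change of −3.76 ± 0.18 (SE). In MEF, Id3 was at 227, 212 and 235 CPM in Control and at 9.46, 9.93 and 10.7 CPM in HSP90i. The treated values lay close together, far below the lowest control, at 4.44% of the control mean (log2 fold change −4.49 ± 0.07). HPC-7 had almost no Id3 RNA before treatment. Its controls held 2, 0 and 0 counts and its treated libraries 0, where 3 counts would correspond to at most 0.256 CPM in a control and 0.294 CPM in a treated library, so no change could be measured.

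ID1, the ID gene most often used as a readout of BMP signalling, was the one ID gene that passed the filter in all 3 lines, and it was lower after treatment in each. K562 Control libraries had 15.5, 10.85 and 7.87 CPM of ID1 and HSP90i libraries 1.61, 1.10 and 0.666. The controls spread widely, with the highest value in Control replicate 1, but none overlapped the treated libraries (log2 fold change −3.31 ± 0.36, or −3.03 without that library). MEF Control libraries had 115, 103 and 116 CPM of Id1 and HSP90i libraries 10.5, 10.1 and 6.58, so that 8.15% of the control mean remained (log2 fold change −3.60 ± 0.14). In HPC-7, Id1 stood at 6.52, 5.64 and 5.67 CPM in Control and at 1.52, 0.979 and 1.09 in HSP90i. These rest on 66 to 111 counts per control library and 10 to 21 per treated library, and 20.2% of the control mean remained (log2 fold change −2.28 ± 0.21). Set in order, the Id1 means of the mouse groups were 111 ± 7.30 CPM in MEF Control, 9.05 ± 2.15 in MEF HSP90i, 5.94 ± 0.500 in HPC-7 Control and 1.2 ± 0.288 in HPC-7 HSP90i (SD, n = 3), in tables scaled separately. The middle neighbours nearly met, with the lowest treated MEF library at 6.58 CPM and the highest HPC-7 control at 6.52.

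ID2, which restrains E proteins in lymphoid and neural cells among others, was lower in K562 and MEF. Its K562 Control libraries had 16.5, 23.4 and 24.1 CPM and its HSP90i libraries 5.67, 5.99 and 5.55. Treated values were close together at 26.9% of the control mean, with a log2 fold change of −1.89 ± 0.19. MEF Id2 went from 45.8, 48.4 and 53.3 CPM to 5.45, 7.24 and 5.69, again without overlap (log2 fold change −3.02 ± 0.11). HPC-7 libraries held 4 to 13 counts of Id2 in Control and 5 to 9 in HSP90i, below the filter. The ranges of 0.342 to 1.08 and 0.489 to 0.653 CPM overlapped, and no difference was detectable at this depth.

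ID4, the fourth ID gene, had counts only in MEF. Controls there had 36, 13 and 12 counts (1.58, 1.23 and 1.14 CPM) and treated libraries 3, 5 and 4 (0.145, 0.464 and 0.356 CPM). The groups did not overlap, but with 12 treated counts in all the log2 fold change of −2.24 ± 0.39 had the largest SE of the MEF genes here. K562 had no count of ID4 in 6 libraries, which allows up to 0.358 CPM in a library, and neither had HPC-7, which allows up to 0.294 CPM.

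**Figure D2:**
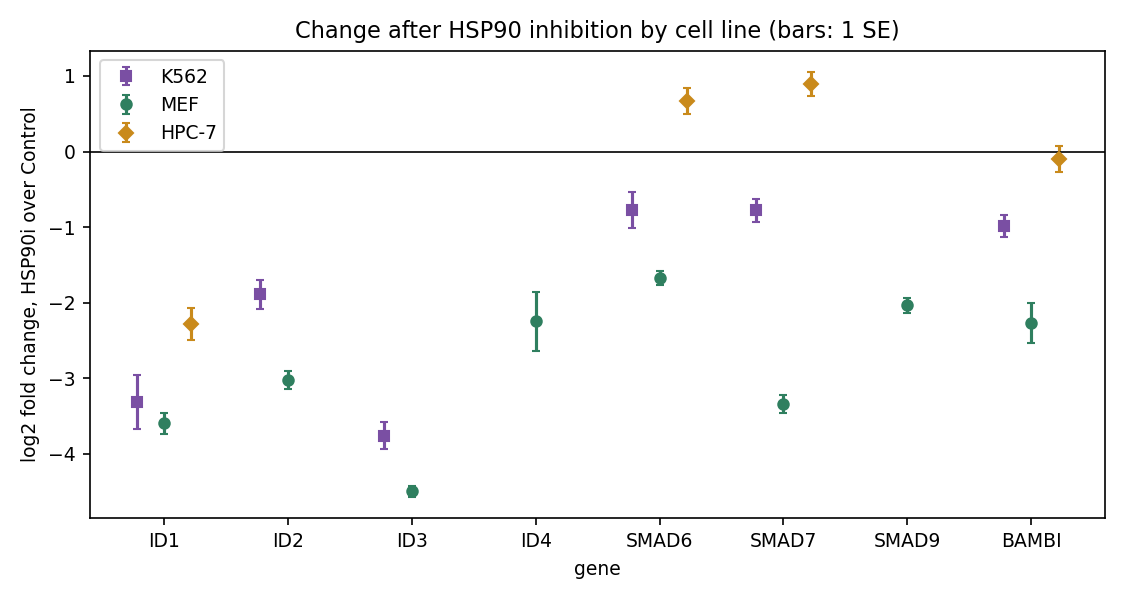
Log2 fold change (vertical axis, HSP90i over Control) of each gene that passed the low-count filter, with squares for K562, circles for MEF, diamonds for HPC-7 and bars of 1 SE. ID1 is below 0 in all 3 lines, and SMAD6 and SMAD7 lie below 0 in K562 and MEF and above 0 in HPC-7.

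The inhibitory SMADs differed in direction between lines. Mouse Smad7 lies at chr18:75367365-75395935 (GRCm38.p6). SMAD7, which binds activated type I receptors and recruits ubiquitin ligases to them, had 29.4, 37.1 and 36.6 CPM in K562 Control and 21.85, 17.7 and 20.5 in HSP90i. The groups were close but separate (58.1% of the control mean, log2 fold change −0.78 ± 0.15). In MEF, Smad7 went from 33.0, 33.3 and 31.3 CPM to 3.23, 3.90 and 2.49, a difference exceeded among the 8 genes only by those of Id3 and Id1 (10.1-fold lower, log2 fold change −3.34 ± 0.12). HPC-7 Smad7 was instead at 4.11, 4.79 and 4.504 CPM in Control and at 9.22, 7.05 and 8.39 in HSP90i. Every treated HPC-7 library was above every control there, at 184% of the control mean (log2 fold change 0.90 ± 0.16). The treated levels, 8.22 ± 1.10 CPM in HPC-7 and 3.21 ± 0.704 in MEF (SD, n = 3, separate scaling), stood in the reverse order of the controls, 4.47 ± 0.338 and 32.5 ± 1.10.

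SMAD6, the inhibitory SMAD with most effect on the BMP branch, followed the same directions with smaller differences. K562 Control libraries had 7.95, 5.17 and 5.37 CPM and HSP90i libraries 3.69, 3.99 and 3.11. Control replicate 1 was the high one. The log2 fold change was −0.77 ± 0.24, and −0.54 without that library. Smad6 in MEF went from 54.2, 46.1 and 50.0 CPM to 15.9, 17.5 and 13.9 (31.5% of the control mean, log2 fold change −1.67 ± 0.10). In HPC-7 it went from 4.58, 5.21 and 4.67 CPM to 9.07, 7.34 and 6.39, all treated libraries higher, with replicate 1 the highest (158% of the control mean, log2 fold change 0.67 ± 0.17, and 0.50 without HSP90i replicate 1).

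SMAD9 and BAMBI complete the set, the mouse Bambi gene lying at chr18:3507011-3516404 (GRCm38.p6). SMAD9, also called SMAD8, is a receptor-regulated SMAD of the BMP branch with weak activity of its own. Smad9 was measured only in MEF, where Control libraries had 19.6, 21.5 and 21.7 CPM and HSP90i libraries 5.31, 4.55 and 5.25 (log2 fold change −2.03 ± 0.10). The treated libraries kept 24.1% of the control mean. K562 and HPC-7 had 0 counts of it in all 12 libraries, with the limits given for ID4. BAMBI had 20.9, 23.3 and 19.1 CPM in K562 Control and 10.1, 10.98 and 10.99 in HSP90i, 50.7% of the control mean (log2 fold change −0.98 ± 0.15). MEF Bambi was low, at 3.87, 2.56 and 3.90 CPM in Control and 0.869, 0.557 and 0.622 in HSP90i, with no overlap (log2 fold change −2.27 ± 0.27). HPC-7 Bambi was at 4.99, 4.36 and 5.004 CPM in Control and 5.23, 4.11 and 4.01 in HSP90i. Those groups overlapped, and the log2 fold change was −0.10 ± 0.17. The mouse pseudogene Bambi-ps1 had 0 to 2 counts per library, and reads shared between it and Bambi could have been counted for neither.

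Levels in untreated MEF and HPC-7 cells were compared in a fit over 12997 genes. The control libraries were part of the values that chose the genes, so this too is a description with no test. Of all genes, 45.4% were higher and 39.3% lower in MEF at an adjusted p under 0.05 (edgeR's quasi-likelihood test), so a difference of line is the usual case, and line and culture conditions cannot be told apart. Id1 was higher in MEF by 4.57 ± 0.09 on the log2 scale (SE), with all 3 MEF libraries above all 3 of HPC-7. Smad6 was higher by 3.74 ± 0.10 and Smad7 by 3.23 ± 0.09, both without overlap. Among all genes tested, 45.7% were higher in MEF without overlap. Bambi overlapped between the lines, at −0.09 ± 0.18, or a MEF to HPC-7 ratio of 0.947 with a 95% Clopper-Pearson interval of 0.762 to 1.17 from summed counts, which covers counting error only. With library size alone as the scaling Bambi was at −0.46, and that scaling moved the median of all genes from 0.08 to −0.30. These 4 genes passed the filter in each mouse line on its own.

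The other 4 genes passed only because MEF was high, so their difference was bound to appear and is given from counts. Id2 had 2114 counts in the MEF controls and 28 in the HPC-7 controls, a scaled ratio of 89.8 (95% interval 62.0 to 136, counting error only). Id3 had 9872 and 2 counts, a ratio of 5870 whose interval of 1630 to 48500 shows how little the HPC-7 value fixes it. Smad9 had 900 counts against 0 and was at least 103-fold higher in MEF, taking 3 counts in the shallowest HPC-7 control library as the limit. Id4 had 61 counts against 0 and was at least 6.98-fold higher by the same limit.

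**Figure D3:**
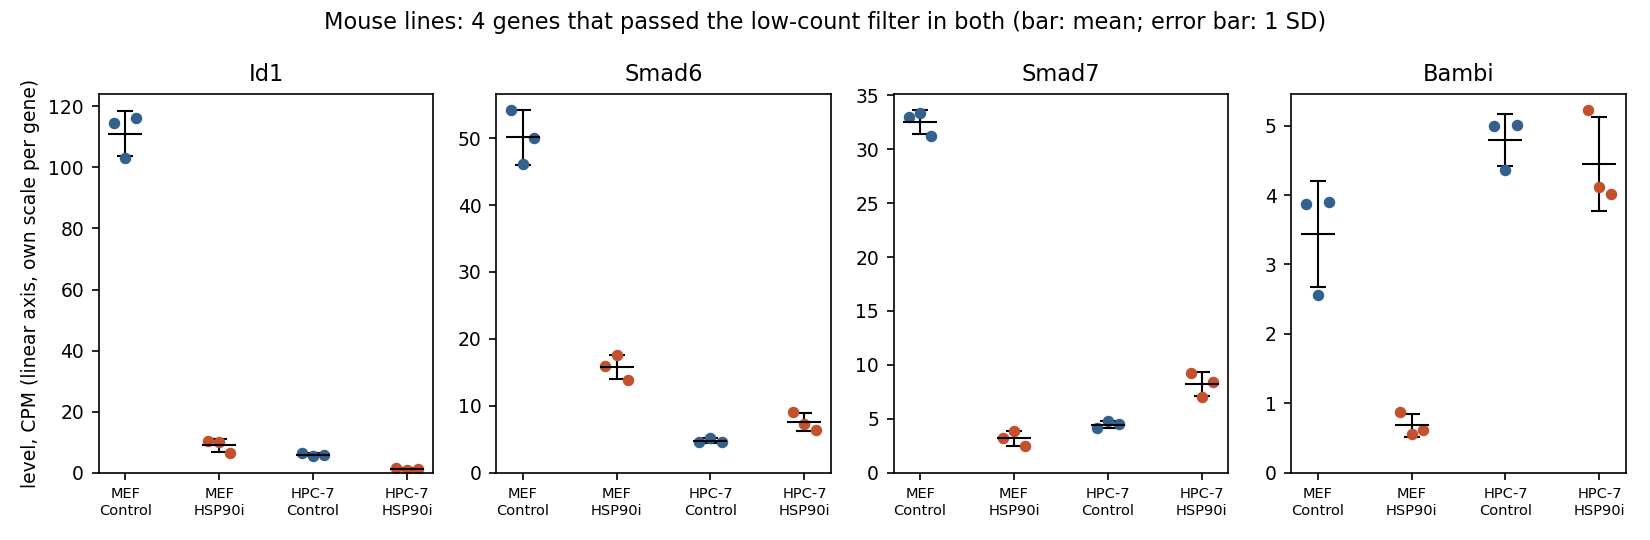
Levels in CPM (linear axis, own scale for each gene) of Id1, Smad6, Smad7 and Bambi in the 4 mouse groups, with points for libraries, a bar for the mean and error bars of 1 SD (n = 3). Untreated MEF are highest for Id1, Smad6 and Smad7, treated HPC-7 lie above untreated HPC-7 for Smad6 and Smad7, and Bambi overlaps between the HPC-7 groups.

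The rest of the pathway was described from 9 lists of 161 genes that leave out the 8 above. In K562, 4 rose and 11 fell of 81 tested (4.9% and 13.6%, against 5.11% and 5.97% of all genes by edgeR's quasi-likelihood test). The 5 SMAD transducers and 3 E protein genes had no call by edgeR at the adjusted threshold, 0 at an unadjusted p under 0.05 and 0 with DESeq2. Log2 fold changes were 0.21 ± 0.14 for SMAD4, −0.13 ± 0.16 for SMAD3, −0.05 ± 0.23 for SMAD5, −0.02 ± 0.13 for SMAD2 and −0.04 ± 0.27 for SMAD1. Those of TCF12, TCF4 and TCF3 were 0.25 ± 0.21, 0.18 ± 0.23 and −0.01 ± 0.12. The genes of SMAD1 and SMAD5, which carry the BMP signal, and of the ID partners were thus measured with an SE of 0.12 to 0.27. They showed no detectable change, except that SMAD5 was called without Control replicate 1 (−0.29, adjusted p = 0.0235, edgeR).

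Upstream in K562, 2 of 6 ligand genes fell, BMP8B (−1.19 ± 0.29) and AMH (−1.47 ± 0.36), and of 12 receptor genes 3 fell and 1 rose. Among them were ACVRL1, a type I receptor for BMP9 and BMP10 (−1.78 ± 0.24, 4.43 ± 0.456 to 1.28 ± 0.190 CPM, adjusted p = 0.00364, edgeR), TGFBR1, the TGF-beta type I receptor (−0.69 ± 0.15), and ACVR1, another BMP type I receptor, which rose (0.65 ± 0.14). The activin antagonist FST (−0.75 ± 0.18) and its relative FSTL3 (−0.98 ± 0.26) fell. TGIF1, a SMAD co-repressor, rose by 0.57 ± 0.13. Of 8 other bHLH genes, BHLHA15 rose from 0.242 ± 0.101 to 2.45 ± 0.336 CPM (3.33 ± 0.38) and TCF15 fell (−1.77 ± 0.44). Only 1 of 7 other BMP targets was called, JUNB (−1.72 ± 0.15), which is also an immediate early gene and on the TGF-beta target list. Of 13 targets on that second list 2 rose and 3 fell, with BHLHE40 at −0.96 ± 0.15 and LTBP2 at −1.87 ± 0.36. Of the 15 K562 calls only ACVRL1, BHLHA15 and JUNB passed without each of the 6 libraries in turn, and every library moved the counts higher, lower or both by over 1.5 times. Leaving out Control replicate 1 gave 9 higher and 25 lower, Control replicate 2 gave 1 and 3, and Control replicate 3 gave 2 and 12. Leaving out HSP90i replicate 1 gave 1 and 2, as did HSP90i replicate 2, and HSP90i replicate 3 gave 1 and 4. Calls over all K562 genes tested swung too, from 173 to 1922 higher and 171 to 1995 lower, against 688 and 803 with every library.

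In MEF, 37 rose and 42 fell of 93 tested (39.8% and 45.2%, against 35.1% and 38.2% of all genes by edgeR). Ligand and receptor genes were mostly higher, 8 of 10 and 11 of 14. Tgfb2 rose by 1.60 ± 0.07 and the activin subunit gene Inhbb by 2.07 ± 0.11, while Tgfb1 fell (−1.26 ± 0.10). The BMP co-receptor gene Rgma (0.78 ± 0.06) and Tgfbr2 (0.53 ± 0.04) rose and the BMP type I receptor gene Acvr1 fell (−0.85 ± 0.07). Extracellular antagonists split 4 and 4 of 9, with Nbl1 (2.31 ± 0.06, 57.6 ± 3.72 to 286 ± 9.69 CPM), Twsg1 (1.33 ± 0.05) and Chrd (1.96 ± 0.09), whose products bind BMPs outside the cell, among the higher. The 4 that fell, named here after their values were seen, were Grem1 (−2.19 ± 0.12, 645 ± 115 to 142 ± 10.2 CPM), Fst (−2.01 ± 0.09), Bmper (−1.88 ± 0.10) and Nog (−1.30 ± 0.22), whose products also bind BMPs or activins.

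The transducers in MEF fell in 4 of 5 cases. Smad1 fell from 33.9 ± 1.22 to 21.4 ± 0.588 CPM (−0.66 ± 0.06), Smad5 changed by −0.32 ± 0.07, Smad4 by −0.23 ± 0.05 and Smad2 by −0.85 ± 0.06, whereas Smad3, of the TGF-beta branch, rose (1.27 ± 0.05). Regulators inside the cell had 3 higher and 16 lower of 26, with Fkbp1a, whose product guards type I receptors, at −1.07 ± 0.04, Pmepa1 at −0.85 ± 0.05 and Tgif1 at −0.92 ± 0.06. E protein genes Tcf12 (0.38 ± 0.04) and Tcf4 (0.50 ± 0.11) rose and Tcf3 was not called (0.05 ± 0.06, adjusted p = 0.458, edgeR). Of 4 other bHLH genes, Twist2 fell (−1.53 ± 0.12) and Hand2 rose (1.19 ± 0.15). The other BMP targets had 2 higher and 6 lower of 9 (median −1.09), with Junb at −2.49 ± 0.07, Snai2 at −1.77 ± 0.11 and Tbx2 at 2.74 ± 0.19. TGF-beta targets had 5 higher and 14 lower of 19 (median −0.85), among them Ctgf (−5.24 ± 0.07), which is also YAP and SRF responsive. The adjusted p of the MEF genes named as called ran from 2.77e-09 (Ctgf) to 0.00307 (Tcf4) by edgeR.

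HPC-7 had 34 higher and 14 lower of 59 tested (57.6% and 23.7%, against 36.5% and 36.6% of all genes by edgeR). Of the regulators inside the cell, 15 of 24 rose and 3 fell. Among the higher were the phosphatase genes Ctdsp2 (1.27 ± 0.08, 242 ± 9.79 to 585 ± 55.6 CPM) and Ctdspl (1.02 ± 0.07) and the ubiquitin ligase gene Rnf111 (0.85 ± 0.07), whose product degrades SMAD7 and SKIL. Fkbp1a, named here after its values were seen, fell from 130.4 ± 4.54 to 42.0 ± 13.2 CPM (−1.64 ± 0.17). The transducers moved little, with Smad5 (0.39 ± 0.07), Smad4 (0.33 ± 0.08) and Smad3 (0.25 ± 0.08) higher and Smad1 (−0.38 ± 0.07) and Smad2 (−0.26 ± 0.08) lower. With Control replicate 1 left out Smad2 was not called (adjusted p = 0.0733, edgeR). Tcf4 (0.60 ± 0.07) and Tcf12 (0.32 ± 0.07) rose. Tcf3 fell by 0.19 ± 0.08 on the log2 scale, a call lost with DESeq2 (adjusted p = 0.0575) and without Control replicate 2 or 3 or HSP90i replicate 3 (adjusted p = 0.0836, 0.145 and 0.134, edgeR).

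At the cell surface of HPC-7, 3 ligand genes were tested. Tgfb1 fell (−0.44 ± 0.10) and Amh rose from a low level (1.02 ± 0.34), a call lost with DESeq2 (adjusted p = 0.0661) and without Control replicate 1 or 3 or HSP90i replicate 1 (adjusted p = 0.0571, 0.0745 and 0.102, edgeR). Receptors had 4 higher and 2 lower of 8, with Acvr2b (1.13 ± 0.18) and Tgfbr2 (0.43 ± 0.07) higher and Acvr1b (−0.43 ± 0.07) lower, and the antagonist genes Fstl3 (2.59 ± 0.47) and Dand5 (0.92 ± 0.17) rose. Fstl3 too rose from a low level, 0.193 ± 0.189 to 1.38 ± 0.225 CPM. Its log2 fold change ran from 2.27 to 3.86 with 1 library left out. Both blood bHLH partners of E proteins were called, Tal1 higher (1.04 ± 0.07, 360 ± 5.15 to 743 ± 56.8 CPM) and Lyl1 lower (−1.11 ± 0.09, 344 ± 13.5 to 160 ± 17.9 CPM). Of 5 other BMP targets 3 rose and 1 fell, with Hey1 at 4.14 ± 0.35 (0.191 ± 0.0382 to 3.58 ± 0.805 CPM), Tbx3 at 1.83 ± 0.22 (1.04 ± 0.129 to 3.74 ± 0.447 CPM) and Runx2 at −1.20 ± 0.16. All 3 that rose were low in Control, including Tbx2 (0.609 ± 0.0327 to 2.035 ± 1.19 CPM), named here after its values were seen. Summed over the list, levels were lower after treatment, 83.7 to 94.7 CPM in Control and 59.2 to 77.5 in HSP90i. TGF-beta targets had 6 higher and 3 lower of 10, with Ltbp3 (1.45 ± 0.08) and the CDK inhibitor gene Cdkn1a (1.23 ± 0.11) higher and Klf10 lower (−1.08 ± 0.14). The adjusted p of the HPC-7 genes named as called ran from 5.97e-07 (Ltbp3) to 0.042 (Tcf3) by edgeR. Differences between lines in these calls were not tested.

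**Figure D4:**
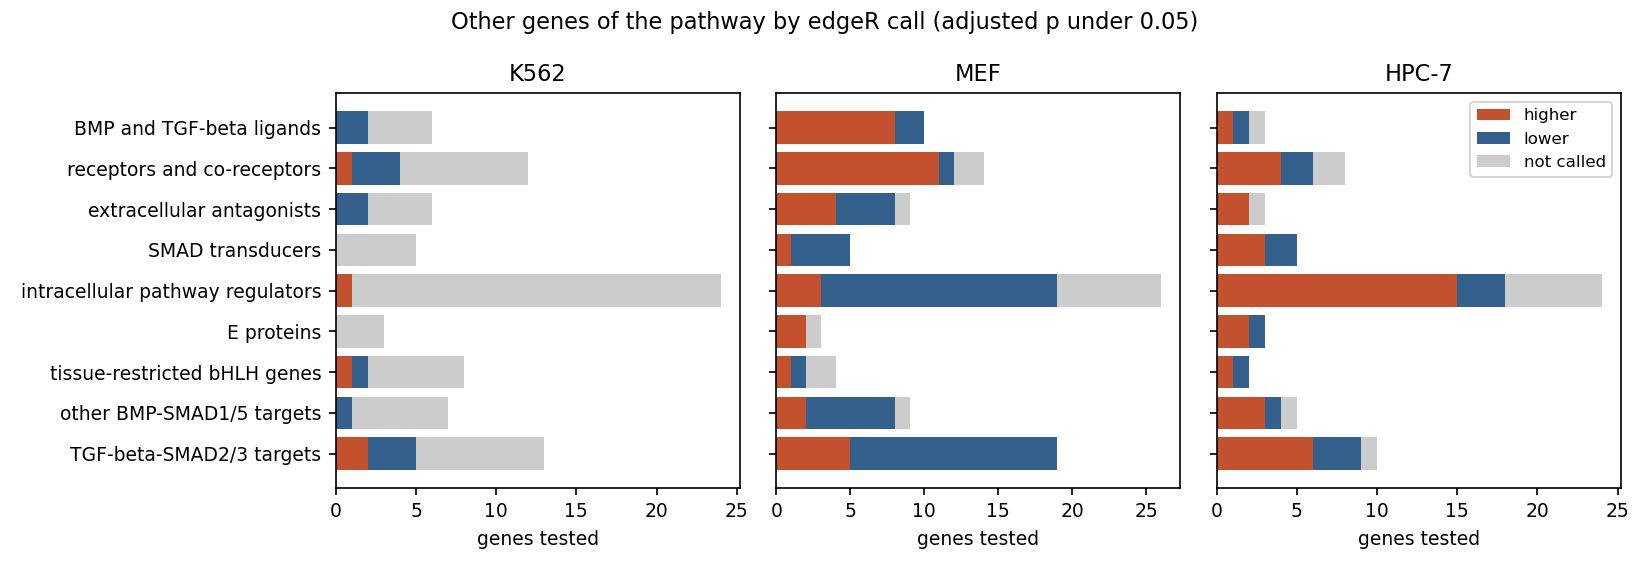
Number of tested genes (horizontal axis) of each of the 9 pathway lists that were higher, lower or not called after HSP90 inhibition in K562, MEF and HPC-7 by edgeR at an adjusted p under 0.05. K562 has few calls, MEF ligands and receptors are mostly higher and targets mostly lower, and regulators inside the cell are mostly lower in MEF and mostly higher in HPC-7.

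Across the 18 libraries, each gene's log2 CPM was set relative to the Control mean of its line, and the 4 genes tested in all lines were compared. Smad6 and Smad7 were the most alike pair (Pearson r = 0.947, n = 18 libraries), followed by Smad7 and Bambi (0.919) and Smad6 and Bambi (0.901), then ID1 and BAMBI (0.821), ID1 and SMAD6 (0.640) and ID1 and SMAD7 (0.617). These values rest on the groups the libraries share and carry no p. Among 8328 other genes tested in all lines, those most like ID1 were KLF16 (r = 0.977), RRS1 (0.973) and FHOD1 (0.971), and those most like SMAD7 were STK24 (0.988), SYK (0.987) and IRF2BP2 (0.983). SMAD6 was most like DOK1 (0.985), EHBP1L1 (0.984) and PPIF (0.983), and BAMBI most like NUDT3 (0.974), NFATC1 (0.965) and TRAF7 (0.964).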

How the data were processed

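RNA-seq counts of 18 libraries (3 Control and 3 HSP90i each of K562, MEF and HPC-7) were used, grouped by sample title. The count columns named DMSO were taken as Control of the same number. The authors deposited raw counts for each gene. The submitters' processing notes name TopHat2 2.0.13 and featureCounts among the tools for the series, and list 4 builds without roles (hg38, mm10, GRCm38 and GRCh37). Use of strand in counting is not stated in any label, so overlapping and antisense genes could share reads. No K562 gene positions are reported. The peak list of HSP90 chromatin immunoprecipitation was not analysed here, since no human gene positions were used.

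Genes were filtered with filterByExpr, scaled with TMM and fitted with edgeR 4.0.16 (R 4.3.3, quasi-likelihood, Benjamini-Hochberg over all genes tested, threshold 0.05) within each line (13456, 12340 and 11703 genes for K562, MEF and HPC-7) and between mouse controls (12997). The biological coefficient of variation was 0.172, 0.0835, 0.0900 and 0.0772 in that order. The members, the pathway lists and the naming rule were chosen with earlier results of these data known. Named were all members, SMAD transducers and E proteins, up to 3 called genes without overlap and with the smallest p per other list and line, and the 3 genes most like each member tested in all lines (log2 CPM, prior count 2), except 1 gene that is not reported here. Alternatives were RLE factors, library size alone, no filter, 1 CPM in 3 libraries, DESeq2 1.42.0, a replicate block and leaving out each library. Procedures were tested on simulated data. Plots came from matplotlib 3.10.9 (Python 3.11.15).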

Additional observations from a re-analysis of the deposited data

Results flagged for a closer look

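SMAD7 and SMAD6 were singled out because every treated library moved in opposite directions in different lines. For SMAD7 the log2 fold change in HPC-7 exceeded that in MEF by 4.24 and that in K562 by 1.68. For SMAD6 the excess was 2.34 over MEF and 1.44 over K562. These differences were not tested, since the genes were chosen with the response known, and dose and line (and species for K562) cannot be told apart.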

How the results depend on the processing

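The log2 fold change of each of the 8 genes in each line where it passed the filter kept its direction and moved by less than the SD of its log2 CPM between replicates (pooled over both groups) under 216 of 216 alternatives. For the alternatives that left out 1 library this could hardly turn out otherwise. With 3 libraries in a group, leaving out 1 moves the mean by less than that SD. Groups without overlap also keep their direction, so these alternatives are no test of the fold changes. Id4 in MEF, with the fewest counts, ran from −2.59 to −1.72 with 1 library left out. Their median over the genes that passed ran from −1.52 to −1.36 in K562, −2.87 to −2.59 in MEF (−2.87 without HSP90i replicate 2, against −2.65) and 0.13 to 0.38 in HPC-7 when 1 library was left out. The numbers of pathway genes higher and lower depended on single libraries in K562 (1 to 9 and 2 to 25 with 1 library left out, against 4 and 11) and less so in MEF (35 to 40 and 40 to 44) and HPC-7 (29 to 33 and 12 to 15). The K562 dependence was not particular to the pathway. Among all genes tested there, 173 to 1922 were higher and 171 to 1995 lower with 1 library left out, against 688 and 803. Library size alone gave 17 lower in K562 and 3 higher, with a median of all genes of −0.13, and 435 genes higher among all tested. The cause was not tested. ACVR1 lost its K562 call in that scaling (adjusted p = 0.0563, edgeR). Bambi in the comparison of untreated MEF with HPC-7 was −0.46 with library size alone, against −0.09, and −0.20 to 0.08 with 1 library left out. Same-numbered libraries did not all deviate together (correlations of 0.281, 0.042 and 0.451 in K562, 0.268, −0.223 and −0.245 in MEF, 0.006, 0.023 and −0.090 in HPC-7), so the numbers are not treated as pairs. With the replicate block, pathway genes higher and lower were 4 and 12 in K562, 37 and 41 in MEF and 32 and 12 in HPC-7, where Tcf3 lost its call (adjusted p = 0.1, edgeR). Depth limits ID2, ID3, ID4 and SMAD9 in HPC-7 and ID4 and SMAD9 in K562. Other overlap and score limits for peaks were not run, since the peak list was not used.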
